A study of Mus musculus with 12 samples.

Results

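Resident macrophage genes were followed in hind limb skeletal muscle of male FVB mice (FVB/N in the study's methods) at 22 weeks of age. The 9 genes were Mrc1, Cd163, Lyve1, Csf1r, Emr1, Cd14, Folr2, Mertk and Cd209f, out of 22923 gene symbols in the files. They were chosen by symbol as markers of tissue-resident macrophages, with earlier results of these data known. The 4 groups of 3 mice were wild-type (WT) mice given normal chow, WT mice given a diet in which most calories came from fat, and αB-crystallin/HspB2 knockout (KO) mice given either, and are called chow-fed and fat-fed here. The titles name the WT mice "Flox", and the methods describe littermates from heterozygous breeding. The KO mice lack both genes in all tissues, so the groups do not separate loss in muscle fibers from loss in macrophages.

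Resident macrophages live in the connective tissue around muscle fibers and vessels, where they take up dying cells, haemoglobin complexes and glycoproteins. Their survival depends on signaling through the receptor Csf1r, and many carry the scavenger and lectin receptors Cd163, Mrc1 and Cd209 proteins along with Lyve1 and Folr2. Some members mark other cells too. Lyve1 is made by lymphatic endothelium and Cd14 by monocytes and neutrophils. In whole muscle RNA, more macrophages and more RNA of these genes per cell cannot be told apart.

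All 9 genes had higher mean levels in KO than in WT mice on either diet, and 6 of the 9 had no overlap between KO and WT mice on both diets, against 3.14% of all tested genes that were higher in KO mice without overlap. All 9 had their lowest group mean in the fat-fed WT mice, and 7 of them their highest in the chow-fed KO mice. The exceptions were Emr1 and Folr2, highest in the fat-fed KO mice. Over both diets the log2 fold changes of KO against WT ran from 0.21 for Mertk to 1.11 for Cd209f with a median of 0.89, and only Emr1 passed the adjusted threshold, which 0.862% of all tested genes passed.

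Values are FPKM, fragment counts that the authors scaled by transcript length and by library size. The test was limma applied to log2(FPKM + 1) in the 11945 genes that reached 1 FPKM in 3 or more samples, as all 9 members did. Adjusted p is the Benjamini-Hochberg value over all of these genes, and the threshold was 0.05. Log2 fold changes are on this scale and run KO over WT, or high fat diet over chow. Cryab was 412 to 837 FPKM in the WT mice and 0.845 to 1.75 FPKM in the KO mice, and Hspb2 was 81.5 to 103.1 FPKM and 0.353 to 1.92 FPKM, so each sample stood with the genotype in its title. The genotype label of 6 samples goes against the title. These are the 3 fat-fed WT mice, KO mouse 3 on normal chow and KO mice 1 and 2 on high fat diet. Summed FPKM was 499509 to 691621 in 11 samples and 10656382 in KO mouse 3 on normal chow. The median over the tested genes was 7.60 FPKM in that mouse, within the 7.07 to 7.68 FPKM of the other samples. Read depth is unknown. Of 8 skeletal muscle markers, Myh4 was listed at 0 in all 12 samples and Acta1 in 2, while Ckm was 13276 to 25896 FPKM, so that a listed 0 need not mean no transcript.

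The members stood at moderate levels for whole muscle. Mean FPKM over the 12 samples was 16.2 for Csf1r, 13.4 for Folr2, 12.8 for Cd209f, 8.08 for Mrc1, 6.79 for Lyve1, 4.76 for Cd14, 4.43 for Cd163, 3.75 for Emr1 and 1.60 for Mertk. The lowest single value was 0.902 FPKM, for Cd163 in WT mouse 1 on high fat diet, and the highest was 28.9 FPKM, for Csf1r in KO mouse 2 on high fat diet. FPKM, being per length, allows this order. The ranges of every pair of neighbors in this order overlapped over the 12 mice. Within mice Folr2 lay below Csf1r in all 12, at ratios of 0.539 to 0.952. The other neighbors were not compared within mice. The order also changed with the group, since Emr1, at a mean of 6.41 FPKM in the fat-fed KO mice, stood there above Lyve1 at 5.97, Cd14 at 5.57 and Cd163 at 4.75 FPKM.

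Promoter sequence is shown for Mrc1 and Folr2, those of the 5 members searched whose windows held a motif of the macrophage factors PU.1 or MAF. The 250 bases before a start site were read from RefSeq for the mouse build GRCm38.p6, in which 5 of the 9 members and 6 promoters were used here. Capitals mark the PU.1 core, searched as GAGGAA on both strands and therefore printed as TTCCTC where it lay on the other one, and the core of the MAF recognition element, searched as TGCTGA on both strands. In these windows no match of one overlapped a match of the other.
Mrc1, chr2:14229164-14229413, plus strand: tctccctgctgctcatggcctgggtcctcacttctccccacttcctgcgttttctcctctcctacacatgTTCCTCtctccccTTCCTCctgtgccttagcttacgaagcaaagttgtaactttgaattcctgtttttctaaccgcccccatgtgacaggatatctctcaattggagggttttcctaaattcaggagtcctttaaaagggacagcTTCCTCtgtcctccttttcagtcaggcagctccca
Folr2 promoter 1, chr7:101857191-101857440, minus strand: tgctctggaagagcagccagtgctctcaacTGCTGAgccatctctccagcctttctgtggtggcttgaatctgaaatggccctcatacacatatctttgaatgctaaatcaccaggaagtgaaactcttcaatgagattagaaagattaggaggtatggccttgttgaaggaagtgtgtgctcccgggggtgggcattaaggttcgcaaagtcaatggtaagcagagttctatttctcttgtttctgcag
Folr2 promoter 2, chr7:101845332-101845581, minus strand: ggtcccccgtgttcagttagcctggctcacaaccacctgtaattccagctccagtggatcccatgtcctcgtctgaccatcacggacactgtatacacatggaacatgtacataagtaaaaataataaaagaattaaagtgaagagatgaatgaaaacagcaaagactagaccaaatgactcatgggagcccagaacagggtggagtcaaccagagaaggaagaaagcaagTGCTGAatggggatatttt
The Mrc1 window held 3 PU.1 cores, at -180, -167 and -35 from the start, and the Folr2 windows held 1 MAF core each, at -220 and -19. The windows of Cd163, Mertk and Cd209f held neither, and no window was searched for Csf1r, Emr1, Cd14 or Lyve1. Of 32851 mouse promoter windows of this length, 23.3% held the PU.1 core and 16.1% the MAF core, so the matches are a description of these windows.

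**Figure D1:**
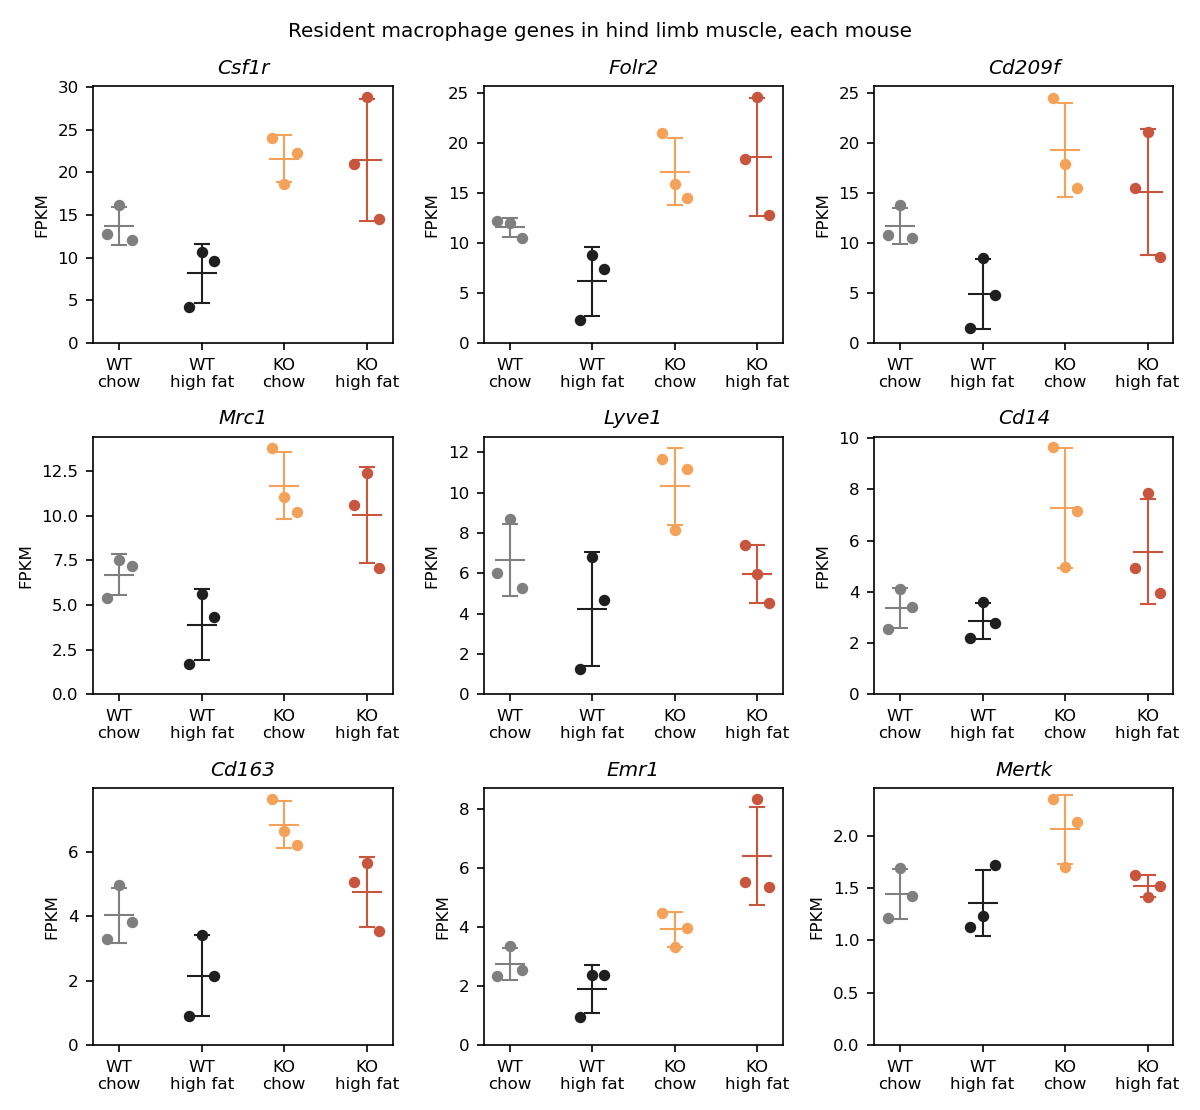
FPKM of the 9 genes in each mouse (points), with the group mean and SD (bars, n = 3), for chow-fed and fat-fed WT and KO mice, in panels that start at 0. The group mean of the fat-fed WT mice is the lowest in all 9 panels, and WT mouse 1 on high fat diet, the leftmost point of that group, is its lowest value for each gene.

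Csf1r is the receptor for the growth factors Csf1 and Il34. It stood at 12.8, 16.2 and 12.05 FPKM in the chow-fed and 4.22, 10.7 and 9.67 FPKM in the fat-fed WT mice. Csf1r reached 24.0, 18.6 and 22.2 FPKM in the chow-fed and 21.0, 28.9 and 14.6 FPKM in the fat-fed KO mice. Every KO mouse lay above every WT mouse of its diet, and in the WT mice the diets did not overlap. Over both diets Csf1r showed a log2 fold change of 0.98 (SE 0.21, limma adjusted p 0.056), short of the threshold.

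Emr1, named Adgre1 in current annotation, encodes the F4/80 antigen of mouse macrophages. It stood at 2.33, 3.37 and 2.53 FPKM in the chow-fed and 0.942, 2.38 and 2.37 FPKM in the fat-fed WT mice. Emr1 reached 4.49, 3.32 and 3.965 FPKM in the chow-fed and 5.52, 8.35 and 5.37 FPKM in the fat-fed KO mice. The fat-fed KO mice stood above all other mice, and on normal chow KO mouse 2 lay below WT mouse 2. Emr1 rose in KO mice over both diets by 0.89 on the log2 scale (SE 0.16, limma adjusted p 0.042). The call was lost, at adjusted p of 0.066 to 0.126, when WT mouse 1 or 3 or KO mouse 1 or 3 on normal chow, or KO mouse 1 or 2 on high fat diet was left out. It was also lost without a filter on low values (adjusted p 0.071), with the replicate number as a block (0.058), and with the adipocyte or fibroblast marker sum as a covariate (0.80 in each). Leaving out the 3 libraries highest in T and B cell markers left 1 chow-fed KO mouse, so no call is given for that fit. On high fat diet alone the log2 fold change was 1.38 (interval 0.89 to 1.87, limma adjusted p 0.053).

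Mrc1, the mannose receptor, stood at 5.37, 7.53 and 7.18 FPKM in the chow-fed and 1.71, 5.63 and 4.34 FPKM in the fat-fed WT mice. Mrc1 reached 13.8, 11.0 and 10.2 FPKM in the chow-fed and 10.6, 12.4 and 7.10 FPKM in the fat-fed KO mice. KO and WT mice did not overlap on either diet, and the log2 fold change over both diets was 0.98 (SE 0.21, limma adjusted p 0.056).

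Cd163, the receptor for haemoglobin bound to haptoglobin, stood at 3.29, 4.96 and 3.80 FPKM in the chow-fed and 0.902, 3.40 and 2.13 FPKM in the fat-fed WT mice. Cd163 reached 7.63, 6.64 and 6.21 FPKM in the chow-fed and 5.05, 5.64 and 3.55 FPKM in the fat-fed KO mice. The genotypes did not overlap on either diet, and within the KO mice the diets did not overlap. Over both diets Cd163 showed a log2 fold change of 0.79 (limma adjusted p 0.059).

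Cd209f belongs to the mouse family of Cd209 C-type lectins. It stood at 10.8, 13.8 and 10.51 FPKM in the chow-fed and 1.505, 8.51 and 4.79 FPKM in the fat-fed WT mice. Cd209f reached 24.6, 17.98 and 15.5 FPKM in the chow-fed and 15.6, 21.2 and 8.65 FPKM in the fat-fed KO mice. KO mouse 3 on high fat diet was just above the highest WT mouse of that diet, and the genotypes did not overlap. The log2 fold change over both diets was 1.11 (SE 0.30, limma adjusted p 0.072). Its level is uncertain, because 374 of the 1242 stretches of 100 bases in its transcripts, 30.1%, also occur in other genes, mostly Cd209g. None of the other members shared such a stretch.

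Folr2, a folate receptor of resident macrophages, stood at 12.2, 12.04 and 10.49 FPKM in the chow-fed and 2.27, 8.83 and 7.44 FPKM in the fat-fed WT mice. Folr2 reached 21.0, 15.9 and 14.6 FPKM in the chow-fed and 18.4, 24.6 and 12.8 FPKM in the fat-fed KO mice. No KO mouse overlapped a WT mouse of its diet, and the WT diets did not overlap. Folr2 showed a log2 fold change of 1.04 over both diets (limma, adjusted p 0.061).

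Lyve1, a hyaluronan receptor, stood at 6.02, 8.69 and 5.25 FPKM in the chow-fed and 1.22, 6.80 and 4.67 FPKM in the fat-fed WT mice. Lyve1 reached 11.7, 8.15 and 11.2 FPKM in the chow-fed and 7.39, 5.98 and 4.53 FPKM in the fat-fed KO mice. Genotypes overlapped on both diets, and the KO diets did not. The log2 fold change over both diets was 0.57 (interval -0.01 to 1.16, limma adjusted p 0.197), so a genotype difference in Lyve1 was not shown.

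Mertk is a receptor tyrosine kinase for the engulfment of dying cells. Its values were 1.21, 1.69 and 1.43 FPKM in the chow-fed and 1.13, 1.23 and 1.72 FPKM in the fat-fed WT mice. Mertk reached 2.35, 1.70 and 2.13 FPKM in the chow-fed and 1.63, 1.41 and 1.52 FPKM in the fat-fed KO mice. The genotypes overlapped on high fat diet but not on normal chow, where KO mouse 2 and WT mouse 2 nearly met. The log2 fold change over both diets was 0.21 (limma adjusted p 0.157), and adding 1 before the log understates a change at so low a level.

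Cd14 is the co-receptor that hands lipopolysaccharide to Tlr4. It stood at 2.54, 4.11 and 3.39 FPKM in the chow-fed and 2.19, 3.58 and 2.78 FPKM in the fat-fed WT mice. Cd14 reached 9.67, 4.96 and 7.17 FPKM in the chow-fed and 4.91, 7.86 and 3.94 FPKM in the fat-fed KO mice. KO and WT mice did not overlap on either diet. The log2 fold change over both diets was 0.82 (SE 0.18, limma adjusted p 0.056).

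The effect of genotype was next compared over the 9 genes. Over both diets 1 of 9 passed the adjusted threshold, against 0.862% of all tested genes. At an unadjusted p under 0.05, 8 of 9 were higher in KO mice, all but Lyve1, where 13.1% of all tested genes were. The 6 members without overlap on both diets, Mrc1, Cd163, Csf1r, Cd14, Folr2 and Cd209f, compare with 3.14% of tested genes that were higher in KO mice without overlap. For each of the 9 genes, all 6 KO mice lay above the mean of the WT mice on the same diet. The median log2 fold change of the members was 0.89 and that of all tested genes -0.02. Because the members were chosen with earlier results known and their levels were correlated, these counts do not weigh as 9 separate genes. The spread of calls shows how near the threshold the members lay, since between 0 and 6 of them passed when 1 mouse was left out, with 6 passing without KO mouse 2 on normal chow, where 1200 of 11910 tested genes, 10.1%, also passed.

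On normal chow none of the 9 passed the adjusted threshold, against 0.0586% of tested genes. All 9 had positive log2 fold changes, from 0.32 for Mertk to 0.90 for Cd14, with a median of 0.63. Cd14, Cd163, Mertk and Mrc1 had an unadjusted p under 0.05 in limma, 4 of 9, against 6.73% of tested genes higher. The KO mice lay above the WT mice without overlap for 7 of 9, all but Emr1 and Lyve1, and for 8.15% of tested genes.

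On high fat diet also none of the 9 passed, against 0.109% of tested genes. Log2 fold changes ran from 0.10 for Mertk and 0.57 for Lyve1 to 1.56 for Cd209f and 1.55 for Folr2, with a median of 1.24. Unadjusted, 7 of 9 were higher in KO mice, all but Lyve1 and Mertk, against 9.79% of tested genes. The same 7 had no overlap, against 13% of tested genes. The contrast leans on WT mouse 1, whose values were 0.213 times the mean of the other two fat-fed WT mice for Lyve1, 0.226 times for Cd209f and 0.765 times for Mertk. Without that mouse the median log2 fold change was 0.86, and all 9 stayed positive.

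**Figure D2:**
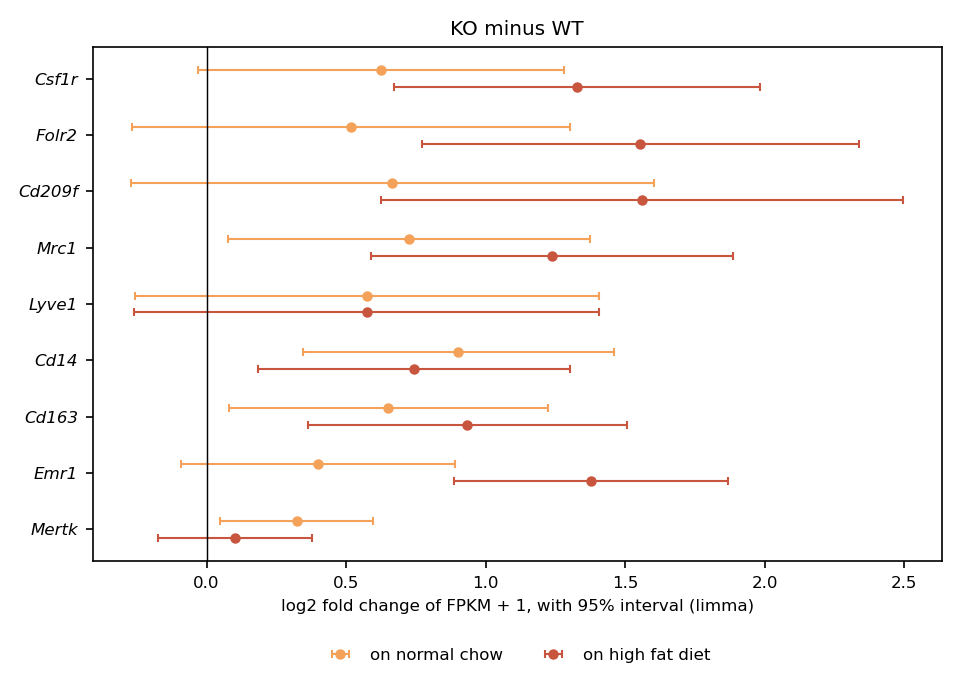
Log2 fold changes of KO against WT for the 9 genes, with 95% intervals from limma (x axis, log2 of FPKM + 1), for chow-fed and fat-fed mice, 3 mice a group. All 18 points lie to the right of 0, from 0.10 for Mertk on high fat diet to 1.56 for Cd209f on high fat diet.

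The effect of the high fat diet was compared within each genotype. In WT mice all 9 genes had lower means on high fat diet, with log2 fold changes from -0.06 for Mertk to -1.29 for Cd209f and a median of -0.74. None passed the adjusted threshold, against 0.1% of tested genes. Mrc1, Cd163, Csf1r, Folr2 and Cd209f had an unadjusted p under 0.05 in limma, 5 of 9, where 3.70% of tested genes were lower. Csf1r, Folr2 and Cd209f did not overlap between diets, 3 of 9, against 6.88% of tested genes lower without overlap. Without WT mouse 1 on high fat diet the median was -0.36 and Mertk turned to 0.02, so the size of the difference rests in part on that mouse.

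In KO mice the diet estimates of the members had both signs, with 2 of 9 positive and a median of -0.28. Emr1 showed a log2 fold change of 0.57 on high fat diet with an unadjusted p of 0.026 (limma adjusted p 0.431), and its diets did not overlap. It was 1 of 9, against 6.56% of tested genes higher at an unadjusted p under 0.05 and 10.7% higher without overlap. Mertk showed a log2 fold change of -0.28 with an unadjusted p of 0.049 in limma, the only 1 of 9 on that side, against 4.73% of tested genes lower. Cd163, Lyve1 and Mertk were lower without overlap, 3 of 9, against 6.14% of tested genes. No member and no tested gene passed the adjusted threshold in KO mice, a share of 0%. Folr2 and Csf1r stood near 0, with log2 fold changes of 0.08 and -0.05 and intervals of -0.70 to 0.86 and -0.71 to 0.60.

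Over both genotypes Cd163, Cd209f, Lyve1 and Mrc1 had an unadjusted p under 0.05 with lower values on high fat diet, 4 of 9, against 5.94% of tested genes. None of the 9 passed the adjusted threshold, against 0.0586% of tested genes. For Cd163 the log2 fold change was -0.60 (limma adjusted p 0.226), and for Lyve1 it was -0.71 with an adjusted p of 0.308.

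Whether diet acted differently in KO than in WT mice was tested by the interaction. Emr1 differed by 0.98 on the log2 scale, with an interval of 0.28 to 1.67 (limma, unadjusted p 0.010, adjusted p 0.656). It was 1 of 9 with an unadjusted p under 0.05, against 3.55% of tested genes on that side. No member and 0% of tested genes passed the adjusted threshold. Folr2 followed with 1.04 and an unadjusted p of 0.064 in limma. For Lyve1 the interaction was -0.00 with an interval of -1.18 to 1.17, which is too wide to say that diet acted alike in both genotypes.

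**Figure D3:**
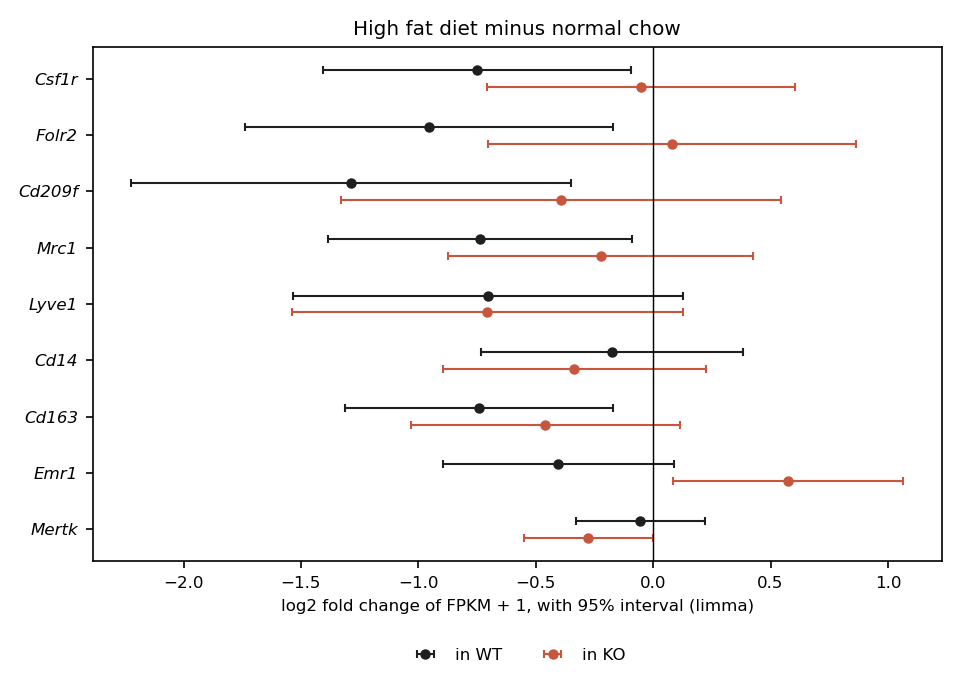
Log2 fold changes of high fat diet against normal chow for the 9 genes, with 95% intervals from limma (x axis, log2 of FPKM + 1), in WT and in KO mice, 3 mice a group. All WT points lie at or below -0.06, while in KO mice Emr1 lies at 0.57, Folr2 at 0.08 and the others below 0.

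Ratios to Emr1 were chosen after the values were seen and have no test. That of Lyve1 was 2.59, 2.58 and 2.07 for chow and 1.30, 2.85 and 1.97 for high fat in WT mice. The KO ratios were 2.60, 2.45 and 2.82 for chow and 1.34, 0.716 and 0.844 for high fat. Fat-fed KO mice lay below chow-fed KO mice without overlap, and WT mouse 1 on high fat diet lay within their range. The ratio of Cd163 to Emr1 also parted the KO diets, at 1.57 to 2.001 for chow and 0.660 to 0.915 for high fat. In WT mice it was 1.41 to 1.5015 for chow and 0.957, 1.43 and 0.900 for high fat, so that WT mouse 3 lay within the range of the fat-fed KO mice and WT mouse 1 just above it. A ratio within a mouse does not depend on library size, and it shows unequal levels of the pair, not which of them moved.

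**Figure D4:**
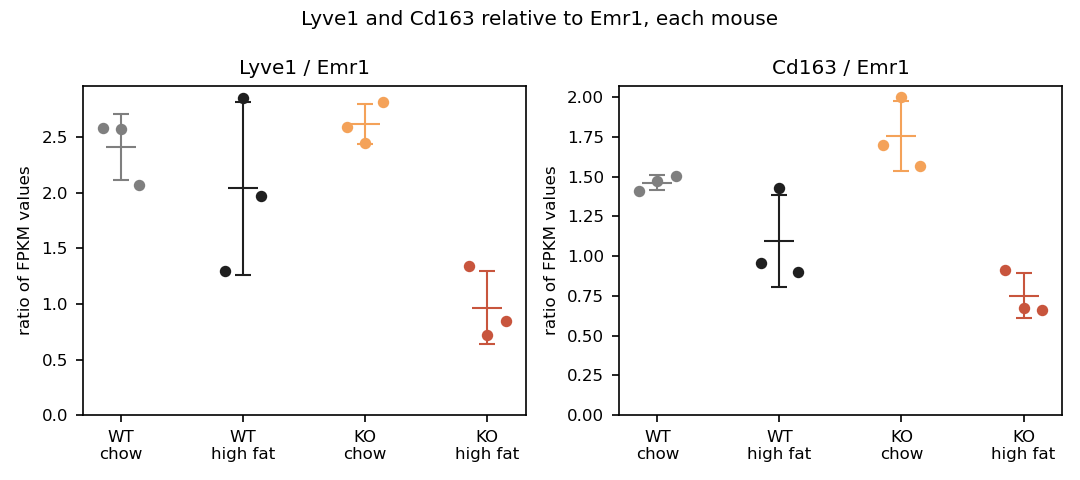
Ratio of Lyve1 to Emr1 and of Cd163 to Emr1 in each mouse (points; y axis, ratio of FPKM values, from 0), with the group mean and SD (bars, n = 3). In the left panel the fat-fed KO mice sit between 0.716 and 1.34 and the chow-fed KO mice between 2.45 and 2.82.

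Across the 12 mice the levels of the members were correlated. Pearson's r of log2(FPKM + 1) over the 36 pairs ran from 0.43 to 0.98 with a median of 0.85, and 22 pairs were over 0.8. After the group means were taken off, r ran from 0.27 to 0.97 with a median of 0.86. WT mouse 1 on high fat diet, the lowest of its group for each member, enters all of these values. How far they rest on that mouse was not tested. The points share their libraries and any difference in tissue sampled.

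The genes most like each member were found by the highest r over the same 12 mice among all tested genes. Csf1r was closest to C1qc at 0.98, followed by Gas7 and Fcgr2b, and Emr1 to the macrophage lysosomal gene Cd68 at 0.97, followed by Tmem106a and Tbxas1. Mrc1 was closest to F13a1 at 0.98, with Gas7 and Cd163 next, and Cd163 to Cd209f at 0.98, with Cma1 and Mrc1 next. Cd209f was closest to its relatives Cd209g at 0.99 and Cd209d at 0.99, and then to F13a1. Of the 100-base stretches of Cd209f, 30.1% also occur in other genes, mostly Cd209g, and the bearing of this on r was not tested. Folr2 was closest to Gas7 at 0.98, then to the joined entry of Ang and Rnase4 and to Hal. Lyve1 was closest to Axl at 0.97, then to Dhx34 and Man1a. Cd14 was closest to Ctsc at 0.97, then to Susd1 and Os9. Mertk was closest to Adcy3 at 0.97, then to Ces1f and Por. The mean of all 9, each standardised, was closest to Tmeff2, Stab1, Gas7 and the mast cell protease genes Cma1 and Cpa3, all at 0.98.

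The ligands and partners of the members were taken from lists by pathway. Of 34 tested genes in the pathway and family lists, 3 rose over both diets in KO mice and none fell, against 0.645% of all tested genes that rose. At an unadjusted p under 0.05, 20 were higher and 1 lower, against 13.1% and 13.4% of all tested genes, with a median log2 fold change of 0.41. All 3, Cd209a, Mgl2 and Clec10a, are C-type lectins of the families of Mrc1 and Cd209f. Clec10a stood at 9.22, 12.1 and 10.3 FPKM in the chow-fed and 2.18, 9.08 and 7.56 FPKM in the fat-fed WT mice. Clec10a reached 26.7, 19.4 and 17.2 FPKM in the chow-fed and 19.7, 40.8 and 20.2 FPKM in the fat-fed KO mice, above every WT mouse. Its log2 fold change was 1.47 (limma adjusted p 0.045), and those of Cd209a and Mgl2 were 0.79 and 0.77, with adjusted p of 0.045 and 0.043.

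Csf1, the growth factor that sustains macrophages through Csf1r, stood at 5.80, 7.55 and 6.36 FPKM in the chow-fed and 3.14, 6.02 and 6.32 FPKM in the fat-fed WT mice. Csf1 reached 11.1, 7.21 and 7.52 FPKM in the chow-fed and 7.76, 9.08 and 7.49 FPKM in the fat-fed KO mice. It showed a log2 fold change of 0.47 over both diets (limma, adjusted p 0.098). Il34, the other ligand, lay between 6.36 and 8.76 FPKM in all mice with a log2 fold change of -0.05. Among Mertk ligands, Pros1 was 6.33 to 8.99 FPKM in WT and 9.70 to 13.3 FPKM in KO mice with a log2 fold change of 0.40 (limma adjusted p 0.063). Gas6 showed a log2 fold change of 0.24 (limma adjusted p 0.122).

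The partners of Cd14 gave values on the same side. Tlr4, the receptor that signals for lipopolysaccharide, was 0.556 to 1.63 FPKM in WT and 1.78 to 2.78 FPKM in KO mice, with a log2 fold change of 0.50 (limma adjusted p 0.059). Ly96, which binds lipopolysaccharide with Tlr4, had 0.42 with an adjusted p of 0.237. None of these partners passed the threshold.

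Other listed genes are named for having one of the 3 largest fold changes in a comparison. Hp, which encodes the haptoglobin that brings haemoglobin to Cd163, had log2 fold changes of 1.14 in the chow-fed and 2.13 in the fat-fed KO against WT mice. In the diet comparisons Hp had 1.32 in KO mice and 0.82 over both genotypes, and 0.99 in the interaction. Cebpa, a transcription factor of myeloid cells and adipocytes, had 1.29 in the chow-fed and 1.64 in the fat-fed mice. Cebpa was 5.77 FPKM in WT mouse 1 on normal chow against 25.3 and 21.7 FPKM in its group. On high fat diet it was 2.76 FPKM in WT mouse 1 against 9.09 and 22.1 FPKM. Cd209b had -1.54 with diet in WT and -1.29 in KO mice, and 0.99 for genotype on normal chow. Cd209b was 14.1 FPKM in WT mouse 2 and 17.1 and 24.5 FPKM in KO mice 1 and 3 on normal chow. These are the 3 libraries highest in T and B cell markers. The other chow-fed mice had 4.38 and 4.66 FPKM in WT and 6.78 FPKM in KO. Fat-fed KO mice had 3.73 to 7.90 FPKM of Cd209b. Cd209d and Cd209g each had -1.29 with diet in WT mice, and Lbp had 0.88 with diet in KO mice. Over both genotypes the diet gave -1.41 for Cd209b and -0.82 for Cd209d, and in the interaction Clec10a had 1.10 and Cd209g 0.98. Over both diets the genotype gave 1.63 for Hp and 1.47 for Cebpa. None of these log2 fold changes passed the adjusted threshold in limma, and Hp was 5.06 FPKM in WT mouse 1 on normal chow against 46.6 and 50.03 FPKM in its group. On high fat diet Hp was 7.45 FPKM in WT mouse 1 against 41.7 and 78.7 FPKM, and without that mouse the log2 fold change of the fat-fed KO against WT mice was 1.20, while without WT mouse 1 on normal chow that of the chow-fed mice was 0.13.

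Marker lists of other cells were summed in each mouse and set beside the members. Of 22 other resident macrophage markers 21 were tested. Over both diets 4 rose past the adjusted threshold in KO mice, Clec10a, Mgl2, Fcna and Ms4a7, against 0.645% of all tested genes. The median log2 fold change over the list was 0.77. The 15 tested general macrophage and monocyte markers all had positive log2 fold changes with a median of 0.80, and none passed the adjusted threshold. With diet in KO mice, where the members had a median of -0.28, lipid-associated macrophage markers had a median of 1.77, and 5 of 7 were higher at an unadjusted p under 0.05, against 6.56% of tested genes. None of the 7 passed the adjusted threshold. Their summed FPKM was 43.2 to 83.5 in chow-fed KO mice and 118 to 173 on high fat diet, without overlap.

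Cells other than macrophages also moved with the groups. The 8 adipocyte markers summed to 140 to 849 FPKM in chow-fed WT mice, 26.9 to 475 on high fat diet, 934 to 1968 in chow-fed KO mice and 463 to 638 on high fat diet. All 8 had positive log2 fold changes for genotype over both diets, with a median of 1.995 against 0.89 for the members. Of these, 7 had an unadjusted p under 0.05 in limma, against 13.1% of all tested genes higher. Their sum correlated with the mean of the members at r = 0.87 over the 12 mice, and at 0.69 within groups. With this sum as a covariate, the members' median log2 fold change over both diets was 0.57, all 9 stayed positive and none passed. The 7 fibroblast markers summed to 554 to 908 FPKM in WT and 843 to 1341 FPKM in KO mice, and with their sum as a covariate the median was 0.38 and none passed. In both fits the adjusted p of Emr1 was 0.80. No marker of either list was at 0 in all samples, and how far fat or connective tissue in the samples bears on the members was not tested beyond these fits.

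Blood and lymphoid cells differed as well. Neutrophil markers summed to 125 to 1171 FPKM in the fat-fed WT mice, highest in mouse 1, the mouse with the lowest members, against 2.19 to 132 FPKM in the other groups. Erythroid markers, mostly the joined entries of the hemoglobin genes, summed to 1574 to 3366 FPKM in the fat-fed WT mice, also highest in mouse 1, against 568 to 1761 FPKM in the other groups. Their sum correlated with the mean of the members at r = -0.73 over the 12 mice and -0.53 within groups, and its part in the members' levels was not tested. With the neutrophil sum as a covariate the members' median for genotype over both diets was 0.89 and Emr1 still passed. T and B cell markers summed to 104 to 114 FPKM in WT mouse 2 and KO mice 1 and 3 on normal chow and to 4.14 to 8.36 FPKM in the other 9. Leaving out those 3 libraries keeps KO mouse 2 as the only chow-fed KO mouse, so only the effect size is given. The members' median over both diets was then 0.86 with all 9 positive. Lymphatic endothelial markers, which bear on Lyve1, summed to 4.65 to 9.57 FPKM over all mice, lowest in WT mouse 1 on high fat diet. This lymphatic sum correlated with the mean of the members at r = 0.66 over the 12 mice and 0.75 within groups. Its part in the level of Lyve1 was not tested.

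**Figure D5:**
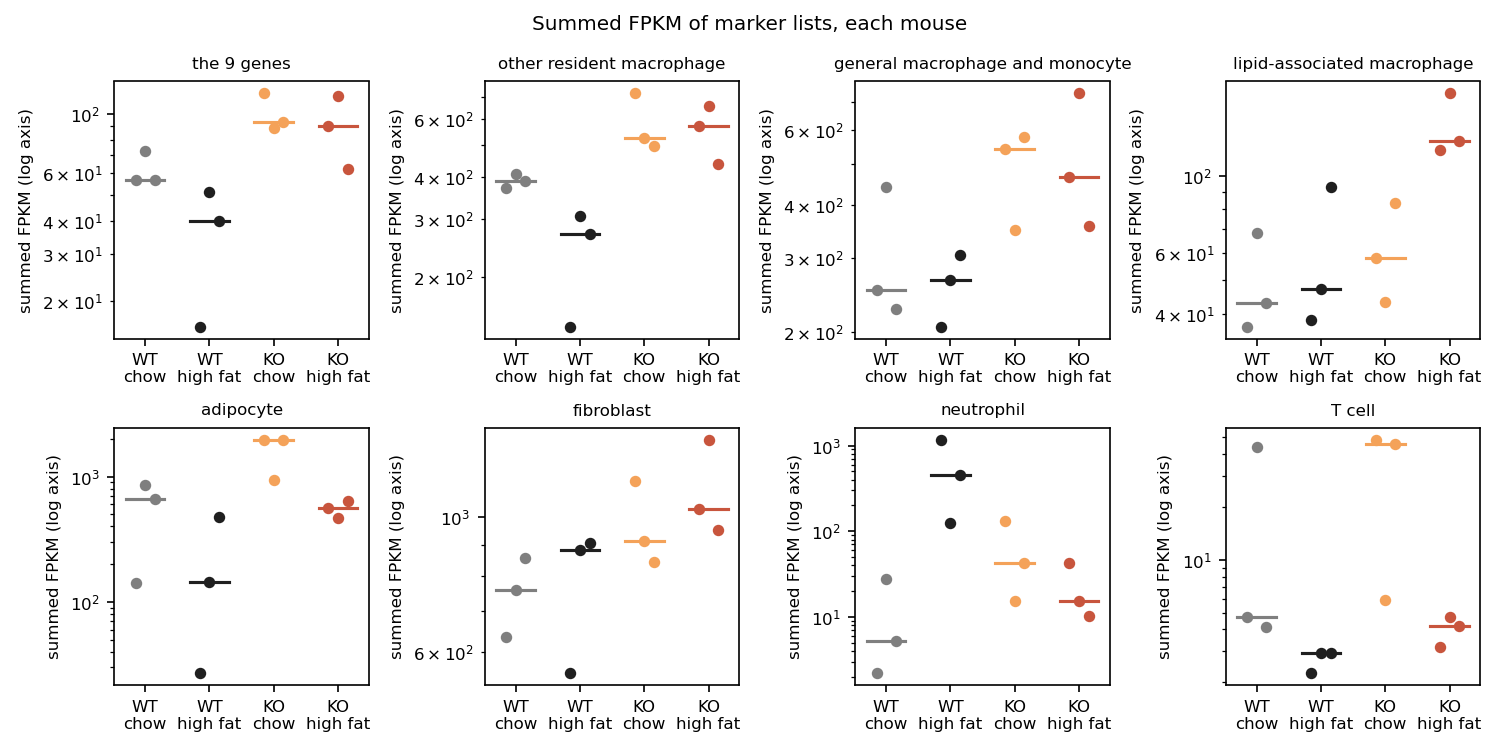
Summed FPKM of the 9 genes and of 7 marker lists in each mouse (points; log y axis), with the group median (line, 3 mice). The 9 genes sum to 16.1 to 72.4 in WT and 62.1 to 119 in KO mice, adipocyte markers are highest in chow-fed KO mice, and neutrophil markers have their highest median in fat-fed WT mice.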

How the data were processed

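Proximal hind limb muscle RNA of 12 mice, 3 in each of 4 groups, was made into Illumina TruSeq libraries and sequenced with paired-end reads. The authors deposited 1 FPKM value per gene symbol and sample, 23179 rows a file. The submitters' processing notes name TopHat2 2.0.8b, Cuffdiff 2.1.1 and mm10. The annotation is not given in the sources used here. FPKM holds no read counts, so depth is unknown and no counting interval is given. The steps between low values gave relative depths of 1 to 1.36.

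Groups came from sample titles. The highest-mean row of a repeated symbol was kept. For limma 3.58.1 (R 4.3.3), log2(FPKM + 1) was fitted with 4 group means and a variance trend on intensity, two-sided, in genes reaching 1 FPKM in 3 or more samples. The code was tested on simulated data. Python 3.11.15, NumPy 2.4.6 and pandas 2.3.3 gave sums, ratios and correlations. Shared sequence was searched in GENCODE M21 transcripts of GRCm38, and promoters came from RefSeq.

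The members and lists were chosen with earlier results of these data known. Named genes were the members, Cryab and Hspb2, 6 partners, listed genes past the threshold or among the 3 largest fold changes of a comparison, and the 3 genes most like each member. Fcna and Ms4a7, the ratios between members and the single muscle markers were chosen after the values were seen. The methods give 3 independent samples per genotype, so p-values measure the spread between these mice. Alternatives were another pseudocount, filter and scaling, a replicate block, a fit to the groups compared alone, the genotype labels and each sample left out. Those added after seeing the data left out the 3 lymphoid-rich libraries or took the adipocyte, neutrophil or fibroblast sum as a covariate.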

Additional observations from a re-analysis of the deposited data

Results flagged for a closer look

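The diet response of Emr1 was singled out by the position of single mice against the chow-fed mean of their genotype. All fat-fed WT mice lay on 1 side of it and all fat-fed KO mice on the other. A fall in WT mice was not shown, since the log2 fold change was -0.40 with an interval of -0.90 to 0.09, and the diets overlapped. With 1 mouse left out it ran from -0.54 to -0.14, and the interaction from 0.71 to 1.11. Both were smallest in size without WT mouse 1 on high fat diet. All 3 WT mice on high fat diet lay below the mean of the WT mice on normal chow, and all 3 KO mice on high fat diet lay above the mean of the KO mice on normal chow. The interaction was 0.98 on the log2 scale, with p 0.010 before and 0.656 after adjustment in limma, so it does not pass the correction over all genes. None of the other 8 genes had this pattern of single mice. Folr2 also had estimates of opposite sign, -0.95 in WT and 0.08 in KO mice. Only 2 of its 3 fat-fed KO mice lay above the chow-fed KO mean.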

How the results depend on the processing

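Depth in reads is unknown. Grouping by the genotype label moves 6 mice to the other genotype, against Cryab and Hspb2, and turned log2 fold changes around for diet in WT mice (Mrc1 0.57, Cd163 0.22, Csf1r 0.65, Emr1 0.97, Cd14 0.52, Folr2 0.75 and Cd209f 0.51) and for diet in KO mice (Emr1 -0.50 and Folr2 -1.30). It did so for genotype on high fat diet (Mrc1 -1.24, Cd163 -0.94, Lyve1 -0.66, Csf1r -1.35, Emr1 -1.18, Cd14 -0.83, Folr2 -1.51, Mertk -0.076 and Cd209f -1.67), as the exchange of mice brings with it. It also did so for genotype over both diets (Mrc1 -0.29, Cd163 -0.18, Lyve1 -0.16, Csf1r -0.46, Emr1 -0.45, Cd14 -0.086, Folr2 -0.48 and Cd209f -0.48) and for the interaction (Mrc1 -1.91, Cd163 -1.51, Csf1r -1.79, Emr1 -1.46, Folr2 -2.05 and Cd209f -2.37). Under all other settings run, all 9 log2 fold changes for genotype over both diets stayed positive.

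For genotype over both diets, where 1 member passed, 0 passed without a filter on low values (18589 genes tested), 2 of 7 passed with at least 1 FPKM in every sample, which leaves out Emr1 and Cd163, and 4 passed after quantile normalization. With 1 mouse left out 0 to 6 passed. The count was 0 with the genotype labels and with the adipocyte or fibroblast covariate. The fit without the 3 lymphoid-rich libraries left 1 chow-fed KO mouse and is given no member count. On high fat diet 1 member, Emr1, passed after quantile normalization, and 0 to 1 with 1 mouse left out. With the fibroblast covariate 1 member passed for diet in WT mice and 3 for diet over both genotypes. The causes were not tested.

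Same-numbered mice deviated from their group means with r of -0.81 to 0.39 and only 2 of 12 pairs over 0.1, so the numbers were not taken to pair the mice. With the number as a replicate block 0 members passed for genotype over both diets, and no other member count changed.

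Other values turned around near 0. With the adipocyte covariate these were Cd14 0.036 and Mertk 0.12 for diet in WT mice, Mrc1 0.081 and Csf1r 0.23 for diet in KO mice, and Lyve1 -0.013 and Mertk -0.10 for genotype on high fat diet. With the fibroblast covariate they were Folr2 -0.20 for diet in KO mice, Folr2 -0.024 for genotype on chow, Lyve1 -0.056 and Mertk -0.021 for genotype on high fat diet, and Emr1 -0.020 for diet over both genotypes. With the neutrophil covariate they were Folr2 -0.023 for diet in KO mice, and Cd14 0.35 and Mertk 0.15 for the interaction. Without the 3 lymphoid-rich libraries they were Mertk 0.017 for diet in WT mice, Csf1r 0.15 and Cd14 0.096 for diet in KO mice, Cd14 0.023 for diet over both genotypes, and Lyve1 0.11 and Cd14 0.15 for the interaction. With a pseudocount of 0.1 the interaction of Lyve1 was 0.12. With 1 mouse left out the ranges that crossed 0 were -0.16 to 0.017 for Mertk with diet in WT mice, -0.28 to 0.19 for Csf1r and -0.13 to 0.31 for Folr2 with diet in KO mice, and -0.0044 to 0.22 for Emr1 with diet over both genotypes. For the interaction they were -0.039 to 0.57 for Cd163, -0.53 to 0.38 for Lyve1 and -0.40 to 0.045 for Cd14.

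Counts over all genes moved more. For genotype over both diets, where 103 passed, 42 did without a filter, 200 after quantile normalization, 40 with the block and 0 with the genotype labels. The count was 4 with the adipocyte and 6 with the fibroblast covariate, and 10 to 1200 with 1 mouse left out. Over all settings the counts ran from 0 to 62 for diet in WT mice (12 as reported), 0 to 81 for diet in KO mice (0), 0 to 14 for genotype on chow (7), 0 to 82 for genotype on high fat diet (13), 0 to 83 for diet over both genotypes (7) and 0 to 1 for the interaction (0).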
